A study of Mus musculus with 15 samples.

Results

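Effector differentiation of CD8 T cells was followed here through 10 genes for transcription regulators: Eomes, Tbx21, Zeb2, Bhlhe40, Prdm1, Runx3, Id2, Gata3, Tox and Ikzf2. They were taken by gene symbol from count tables of 17493 genes. Each of the 10 was a row of all 15 tables, with a count of 0 only for Prdm1 in IF 8 h replicate 3, and each passed the filter on low counts, which kept 10831 genes for testing. Bulk RNA came from OT-I cells, CD8 T cells with a transgenic receptor for an ovalbumin peptide on MHC class I, isolated from the spleen and the lymph nodes of mice of the strain C57BL/6-Tg(TcraTcrb)1100Mjb/Crl. All were female, and their age is not given in the sources used here. The 5 groups held 3 libraries each: unstimulated cells at 0 h, and cells kept for 8 h or 22 h with immunofilaments (IF) or with dendritic cells (DC). Immunofilaments are synthetic filaments that carried MHC loaded with the SIITFEKL peptide together with interleukin-2, and were used at 5 ng/ml. The dendritic cells were grown with Flt3 ligand, pulsed with SIITFEKL and added at 20000 per well. Each stimulated well held 50000 T cells, and every group was sorted as viable, CD8-positive and CD103-negative before RNA was taken. IF and DC differ in the presence of other cells as well as in interleukin-2, and these cannot be told apart by the design. No library of unstimulated cells was kept in culture to 8 h or 22 h, so stimulation and time in culture cannot be told apart either in the comparisons with 0 h. The titles number the 3 libraries of each group Don1 to Don3. The labels do not spell out Don, nor say whether a number is the same animal in every group, so the p-values measure the spread between libraries numbered in this way.

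When a naive CD8 T cell meets antigen, signals from its receptor, from costimulation and from cytokines act through AP-1, NFAT, NF-κB and STAT factors on a small network of lineage regulators. The T-box factors Tbx21 (T-bet) and Eomes drive cytotoxic and cytokine genes, with T-bet tied to short-lived effector cells and Eomes to memory cells. Zeb2 and Prdm1 (Blimp-1) act with T-bet in terminal differentiation, Runx3 and Id2 hold the CD8 effector program in place, and Tox is known from exhausted cells.

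Levels are given as CPM, a gene's share of the reads of its library after scaling by TMM, edgeR's weighted trimmed mean. Total counts ran from 2892874 to 19806730 per library. The cells carried the markers of their label: the summed level of 11 measured CD8 T cell markers was 9662 to 10559 CPM in unstimulated and 4522 to 7304 CPM in stimulated libraries, and Cd4 was at 0 except in the IF 22 h group, where it reached 1.48 CPM. Replicates 2 and 3 of IF 22 h stood apart, with 0.179% and 0.146% of their counts in mitochondrial ribosomal RNA against 3.17% in replicate 1 of that group and 1.82% to 4.49% elsewhere. Results on IF 22 h are therefore also given without both of them for most of the 10 genes. This leaves 1 library in the group, whose spread is assumed to equal that of the other groups. Replicate 2 of both DC groups was high for several of the 10 genes and for Irf8, at 262 CPM at 8 h and 519 CPM at 22 h against at most 74.4 CPM in the other DC libraries, and results on DC are also given without these 2 libraries, a choice made after seeing the data, where the call or the direction changes. Fewer cells of a type and less RNA per cell cannot be told apart in bulk RNA.

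Levels are listed for replicates 1, 2 and 3. Differences are log2 fold changes from edgeR's quasi-likelihood test on all 15 libraries, with p-values adjusted over all 10831 genes and called under 0.05. Each ± is a standard error (SE) that edgeR does not report, taken as the absolute log2 fold change divided by the square root of the F statistic. Over the 5 groups, 5 of the 10 genes differed somewhere (Bhlhe40, Eomes, Zeb2, Runx3 and Ikzf2), where 11.8% of all genes tested did. At IF 8 h 2 of the 10 were called against unstimulated cells, both higher, beside 7.76% of all genes (3.04% higher and 4.72% lower). At DC 8 h 3 were higher and 2 lower, beside 6.82% of all genes (2.75% higher and 4.07% lower). At IF 22 h 1 was higher and 2 were lower, beside 6.08% (2.63% higher and 3.44% lower), and at DC 22 h 1 was higher and 1 lower, beside 7.76% (3.41% higher and 4.35% lower). With IF set against DC, 1 was higher and 1 lower at 8 h, beside 0.665% of all genes (0.231% higher and 0.434% lower). At 22 h 2 were higher and 2 lower, beside 2.43% (1.23% higher and 1.20% lower). All 4 comparisons with 0 h share the unstimulated libraries, and the comparisons of IF with DC share the stimulated ones.

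**Figure D1:**
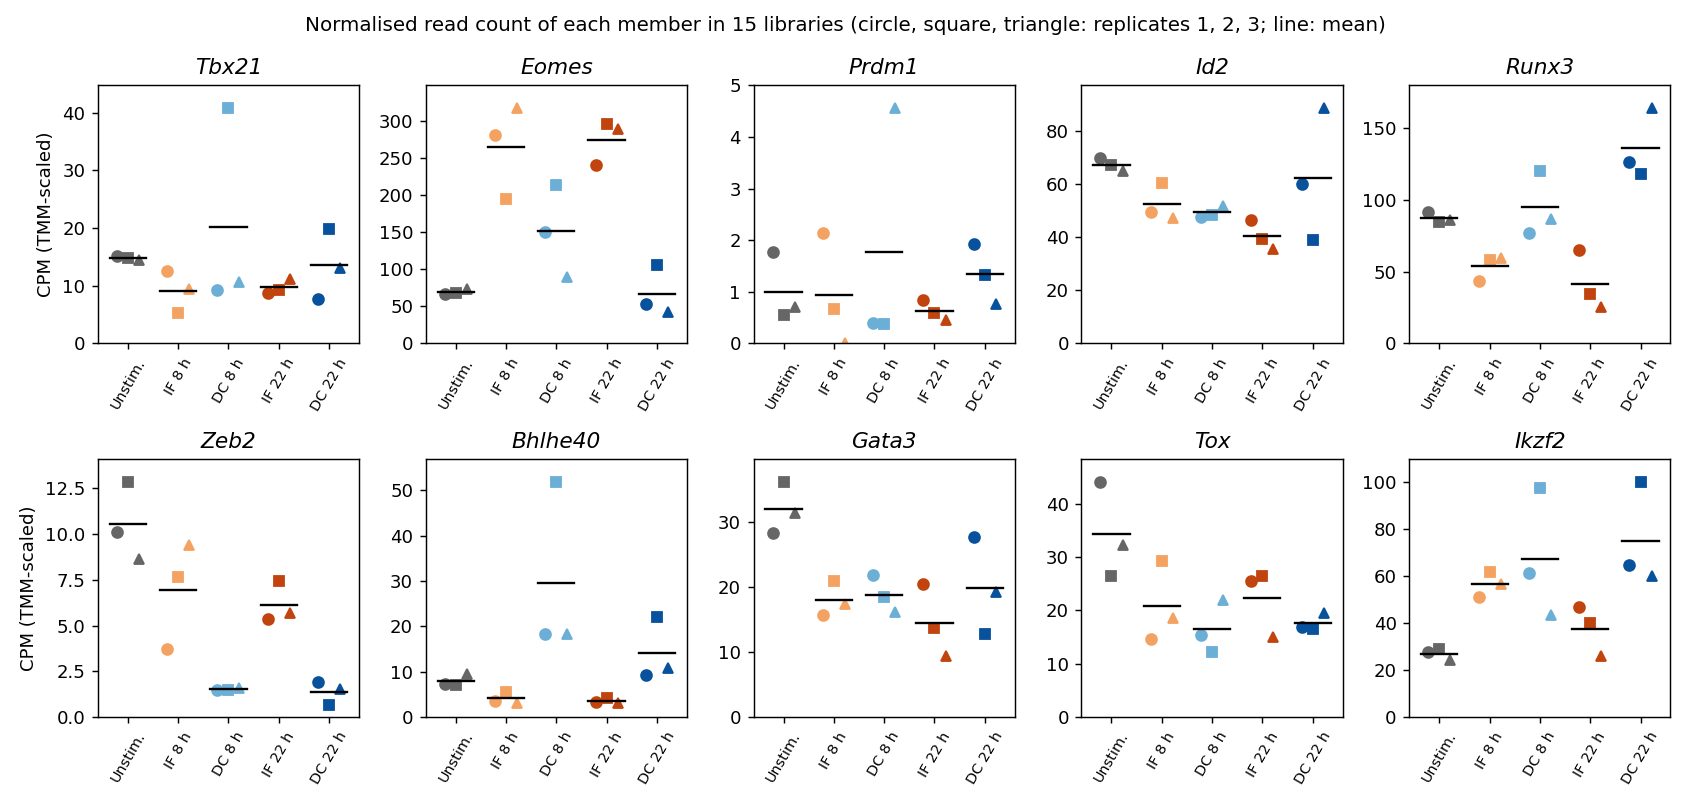
Normalised read count (CPM, linear axes from 0) of each of the 10 genes in the 15 libraries, with the mean of each group as a line and replicates 1, 2 and 3 as circle, square and triangle. Eomes was high in both IF groups, Zeb2 was low in both DC groups, and Bhlhe40, Tbx21 and Ikzf2 were highest in replicate 2 of the DC groups.

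The upstream sequences of 3 regulators that differed between the stimuli are shown because the factors downstream of receptor and cytokine signals bind such regions. RefSeq promoter entries on GRCm38.p6 matched 7 of the 10 genes (Bhlhe40, Tox and Ikzf2 had none in the table used). Each run is the 250 bases before an annotated start, read on the gene's strand. For none of the printed runs did the bases after the start lie whole within a GENCODE transcript of the gene. Capitals mark matches on either strand to GGAAA (NFAT core), TGANTCA (AP-1), TTCNNNGAA (STAT), TGTGGT (RUNX), TCACAC (T-box core) or CACCTG (the E-box bound by ZEB factors and E proteins). No 2 of the marked matches overlap in the runs shown. Eomes lies on the plus strand at chr9:118478212-118486132, and its run at chr9:118477939-118478188 held no match to any of the 6 motifs. Runx3, also on the plus strand at chr4:135120652-135177990, has 2 listed starts. The run of its distal start 1 at chr4:135120395-135120644 held 2 RUNX matches and 1 E-box, and that of start 2 at chr4:135152295-135152544 held no match. Zeb2, on the minus strand at chr2:44983632-45117395, has 4 listed starts. The run of its start 1 at chr2:45117443-45117692 held 3 NFAT core matches, and that of start 4 at chr2:45110278-45110527 held 2 AP-1 matches. The overlapping runs of starts 2 and 3 (chr2:45113280-45113529 and chr2:45113254-45113503), not printed, held the same 2 NFAT core matches and 1 STAT match.
Eomes: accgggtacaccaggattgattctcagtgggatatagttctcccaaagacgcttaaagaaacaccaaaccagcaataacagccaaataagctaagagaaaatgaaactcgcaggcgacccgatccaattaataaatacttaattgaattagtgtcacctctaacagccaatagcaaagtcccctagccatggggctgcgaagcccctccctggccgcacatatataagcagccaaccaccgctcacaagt
Runx3 start 1: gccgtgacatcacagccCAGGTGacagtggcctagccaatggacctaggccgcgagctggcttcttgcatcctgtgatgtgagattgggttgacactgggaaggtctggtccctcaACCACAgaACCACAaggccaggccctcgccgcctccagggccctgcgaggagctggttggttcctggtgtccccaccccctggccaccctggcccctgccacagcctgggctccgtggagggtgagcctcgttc
Zeb2 start 1: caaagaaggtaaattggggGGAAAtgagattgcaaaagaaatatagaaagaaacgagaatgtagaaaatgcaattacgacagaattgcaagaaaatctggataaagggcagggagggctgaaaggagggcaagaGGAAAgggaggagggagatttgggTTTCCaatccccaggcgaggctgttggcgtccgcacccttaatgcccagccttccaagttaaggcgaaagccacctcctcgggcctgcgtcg
Zeb2 start 4: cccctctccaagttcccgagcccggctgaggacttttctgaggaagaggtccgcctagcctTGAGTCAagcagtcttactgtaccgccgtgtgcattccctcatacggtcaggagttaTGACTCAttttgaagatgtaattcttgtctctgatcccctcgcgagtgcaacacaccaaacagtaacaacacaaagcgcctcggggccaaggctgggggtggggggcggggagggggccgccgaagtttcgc
Of 32851 promoter windows of the same 250 bases, 55.6% held the NFAT core, 6.75% the AP-1 motif, 14.0% the RUNX motif and 17.2% the E-box. The STAT motif was in 7.02% and the T-box core in 12.3%. A match describes the letters only, and binding was not measured.

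Eomes, the T-box factor linked to memory CD8 T cells, rose with IF at both times and with DC at 8 h. Unstimulated libraries held 66.1, 68.5 and 73.5 CPM. Eomes read 281, 195 and 317 CPM at IF 8 h and 240.4, 296 and 289 CPM at IF 22 h. With DC it read 151, 214 and 89.6 CPM at 8 h and 53.1, 107 and 42.0 CPM at 22 h. Every IF library lay above every unstimulated library, as did every DC 8 h library, whereas DC 22 h libraries lay on both sides. The log2 fold change over unstimulated cells was 1.93 ± 0.33 at IF 8 h (edgeR, adjusted p = 0.00164) and 1.99 ± 0.33 at IF 22 h (edgeR, adjusted p = 0.00153). It was 1.13 ± 0.32 at DC 8 h (edgeR, adjusted p = 0.0431) and -0.05 ± 0.32 at DC 22 h (edgeR, adjusted p = 0.956). Eomes was higher with IF than with DC at 22 h by 2.04 ± 0.33 (edgeR, adjusted p = 0.00249), and the groups did not overlap. At 8 h the difference of 0.81 ± 0.32 was not called (edgeR, adjusted p = 0.456), and IF replicate 2 at 195 CPM lay below DC replicate 2 at 214 CPM. The change in the IF-DC difference between the times was 1.23 ± 0.45, not called after adjustment (edgeR, adjusted p = 0.533).

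In order of mean level Eomes stood at 275 CPM at IF 22 h, 265 at IF 8 h, 152 at DC 8 h, 69.4 in unstimulated cells and 67.2 at DC 22 h. Of the neighbours in that order only DC 8 h and unstimulated cells differed past the threshold. The calls at IF 8 h, at IF 22 h and between the stimuli at 22 h held in each of the 6 fits that left out 1 library. The DC 8 h call was lost in 5 of 6 such fits, with adjusted p of 0.0943 to 0.211 and log2 fold changes of 0.79 to 1.18. It was kept only without DC 8 h replicate 3, at 1.41 (adjusted p = 0.0141). With the replicate number as a block it was 1.08 (edgeR, adjusted p = 0.0543). Without both IF 22 h libraries low in mitochondrial ribosomal RNA, the fold change was 1.80 over unstimulated cells (edgeR, adjusted p = 0.0664) and 1.84 over DC 22 h (edgeR, adjusted p = 0.147). Without replicate 2 of both DC groups, the 8 h difference between the stimuli reached 1.14 (edgeR, adjusted p = 0.0273) and the drop of DC from 8 h to 22 h reached -1.31 (edgeR, adjusted p = 0.0492), from -1.17 (edgeR, adjusted p = 0.158) with them. DESeq2 called that drop with all libraries (adjusted p = 0.0267). Without the low-count filter edgeR called the 8 h difference (adjusted p = 0.0246), the drop of DC (adjusted p = 3.7e-05) and the change in the IF-DC difference (adjusted p = 0.0091). At DC 22 h the value against unstimulated cells lay close to 0 and its sign depended on the library left out, from -0.52 to 0.20. The annotation places 118 exonic bases of Eomes on the strand opposite Gm33460, and whether counting used strand is not given, so reads of the pair cannot be told apart.

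Natural killer cells and memory-phenotype CD8 cells also express Eomes, so their markers were read beside it. The summed level of 9 measured NK cell markers was 67.3 to 74.3 CPM unstimulated. With IF it was 31.9 to 47.4 at 8 h and 108 to 117 at 22 h, and with DC it was 40.3 to 63.3 at 8 h and 37.5 to 70.8 at 22 h. At IF 22 h Fcer1g stood at 70.8 to 87.6 CPM and Ncr1 at 0 to 0.204 CPM, and Ncr1 had no count in the other stimulated groups. The 9 memory-phenotype markers summed to 1226 to 1591 CPM unstimulated. With IF they summed to 891 to 1153 at 8 h and 1638 to 1658 at 22 h, and with DC to 734 to 1102 at 8 h and 609 to 973 at 22 h. Among them Ccl5 alone read 844 to 1111 CPM unstimulated. With IF it read 502 to 764 at 8 h and 1047 to 1169 at 22 h, and with DC 346 to 665 at 8 h and 197 to 565 at 22 h. The part of either list in the Eomes values was not tested.

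Tbx21, the T-bet gene, differed in no comparison. It read 15.1, 14.8 and 14.4 CPM unstimulated, then 12.5, 5.30 and 9.38 with IF for 8 h and 8.81, 9.32 and 11.2 with IF for 22 h. DC libraries read 9.31, 40.7 and 10.7 at 8 h and 7.74, 19.8 and 13.1 at 22 h. The unstimulated libraries lay close together, every IF library lay below them, and DC replicate 2 lay above them at both times. The fold change ran from -0.68 ± 0.50 at IF 8 h (edgeR, adjusted p = 0.445) to 0.45 ± 0.47 at DC 8 h (edgeR, adjusted p = 0.647) over unstimulated cells, and the latter was -0.57 without DC 8 h replicate 2. At 22 h it was -0.59 ± 0.48 with IF (edgeR, adjusted p = 0.536) and -0.13 ± 0.47 with DC (edgeR, adjusted p = 0.909). Between the stimuli it was -1.13 ± 0.49 at 8 h (edgeR, adjusted p = 0.538), or -0.12 without DC 8 h replicate 2, and -0.47 ± 0.47 at 22 h (edgeR, adjusted p = 0.711).

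Zeb2, a zinc-finger E-box repressor of terminal effector cells, fell with DC and was higher with IF than with DC at both times. Unstimulated libraries read 10.1, 12.8 and 8.61 CPM. With DC they read 1.49, 1.49 and 1.62 CPM at 8 h and 1.93, 0.664 and 1.54 CPM at 22 h. With IF they read 3.75, 7.63 and 9.38 CPM at 8 h and 5.36, 7.41 and 5.67 CPM at 22 h. No DC library reached any unstimulated or IF library, while the IF 8 h libraries overlapped the unstimulated ones. Zeb2 fell by 2.77 ± 0.46 on the log2 scale at DC 8 h (edgeR, adjusted p = 0.00135) and by 2.92 ± 0.45 at DC 22 h (edgeR, adjusted p = 0.000975). The IF values of -0.62 ± 0.42 at 8 h (edgeR, adjusted p = 0.408) and -0.78 ± 0.41 at 22 h (edgeR, adjusted p = 0.306) were not called. Zeb2 was higher with IF than with DC by 2.15 ± 0.46 at 8 h (edgeR, adjusted p = 0.0387) and by 2.14 ± 0.45 at 22 h (edgeR, adjusted p = 0.0168), and the difference changed between the times by -0.01 ± 0.70 without a call (edgeR, adjusted p = 0.998).

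Both DC calls against unstimulated cells held in all 6 fits without 1 library. The IF-DC call at 8 h was lost in 5 of 6 (adjusted p = 0.124 to 0.197, kept without IF 8 h replicate 1), under the replicate block (adjusted p = 0.0710), and without replicate 2 of both DC groups (adjusted p = 0.0527). At 22 h it was lost without IF 22 h replicate 2 or replicate 3 (edgeR, adjusted p = 0.0795 and 0.0515), and it was 1.94 without both (edgeR, adjusted p = 0.452). Depth is low for this gene, at 38 counts over the 3 DC 8 h libraries and 41 over the 3 DC 22 h libraries. Zeb2os, which lies antisense over 653 exonic bases of Zeb2, could have contributed reads. The order of means was 10.5 CPM unstimulated, 6.92 at IF 8 h, 6.14 at IF 22 h, 1.53 at DC 8 h and 1.38 at DC 22 h. Of the neighbours in it only the IF 22 h and DC 8 h groups were not compared, and the other neighbours showed no call.

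Bhlhe40, a helix-loop-helix factor that supports cytokine output and mitochondrial fitness of T cells, had group means above its unstimulated mean with DC and below it with IF, and was lower with IF than with DC at both times. It read 7.34, 7.05 and 9.54 CPM unstimulated, 18.4, 51.8 and 18.4 at DC 8 h, and 9.33, 22.0 and 10.8 at DC 22 h. With IF it read 3.57, 5.64 and 3.21 CPM at 8 h and 3.33, 4.30 and 3.16 CPM at 22 h. At 8 h every DC library lay above and every IF library below all unstimulated libraries. Bhlhe40 rose by 1.89 ± 0.42 at DC 8 h (edgeR, adjusted p = 0.0117), with 0.82 ± 0.42 at DC 22 h (edgeR, adjusted p = 0.264). The IF values of -0.96 ± 0.47 at 8 h (edgeR, adjusted p = 0.231) and -1.15 ± 0.44 at 22 h (edgeR, adjusted p = 0.140) were not called on their own. IF was lower than DC by -2.85 ± 0.46 at 8 h (edgeR, adjusted p = 0.00593) and -1.97 ± 0.43 at 22 h (edgeR, adjusted p = 0.0219).

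The rise at DC 8 h was lost in 3 of 6 fits without 1 library: without unstimulated replicate 1, unstimulated replicate 2 or DC 8 h replicate 2 (adjusted p = 0.0554 to 0.0961, log2 fold change down to 1.21). The IF-DC call at 8 h was lost without IF 8 h replicate 3 only (adjusted p = 0.0514), and at 22 h without IF 22 h replicate 2, IF 22 h replicate 3 or DC 22 h replicate 2 (adjusted p = 0.0720 to 0.126). Without both IF 22 h libraries the 22 h difference was -2.07 (edgeR, adjusted p = 0.566). Dendritic cell transcripts were higher in sum beside Bhlhe40: the summed level of 25 measured dendritic cell markers was 1141 to 1360 CPM at DC 8 h against 399 to 554 at IF 8 h, and Fscn1, a marker of mature dendritic cells, was 126 to 168 CPM at DC 8 h against 0.268 to 0.663 at IF 8 h. At 22 h the list summed to 697 to 1026 CPM with DC and 448 to 739 with IF, and Fscn1 read 72.9 to 94.8 and 5.83 to 43.8 CPM. Itgax, also in the list, went the other way, at 3.82 to 6.93 CPM at DC 8 h against 11.1 to 15.3 at IF 8 h. At 22 h Itgax read 2.05 to 7.69 with DC and 14.0 to 31.8 with IF. Of 19 tested markers, IF against DC gave 0 higher and 6 lower at 8 h (0.665% of all genes called), and 1 higher and 4 lower at 22 h (2.43%). The part of dendritic cell transcripts in the Bhlhe40 differences was not tested. Unstimulated libraries held 685 to 1592 CPM of that list with Fscn1 at 0 to 6.75 CPM. Bhlhe40 shares 118 exonic bases with the antisense gene 0610040F04Rik.

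Prdm1, the gene for Blimp-1, was near the floor of detection. It had 12, 3 and 3 counts in unstimulated libraries. With IF it had 12, 2 and 0 counts at 8 h and 7, 5 and 9 at 22 h, and with DC 4, 3 and 31 at 8 h and 17, 12 and 9 at 22 h. The highest library, DC 8 h replicate 3, held most of its group's counts. No comparison called Prdm1. The SE of its differences from unstimulated cells and between the stimuli was 1.08 to 1.16 on the log2 scale. Against unstimulated cells they were with IF -0.04 at 8 h (edgeR, adjusted p = 0.991) and -0.71 at 22 h (0.783), and with DC 0.76 at 8 h (0.757) and 0.38 at 22 h (0.878). IF lay below DC by -0.80 at 8 h (edgeR, adjusted p = 0.953) and -1.09 at 22 h (0.706). Without DC 8 h replicate 3 the DC 8 h value turned to -1.36 and the IF-DC difference at 8 h to 1.31.

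Runx3, which specifies the CD8 lineage and opens effector loci, fell at IF 22 h and was lower there than at DC 22 h. Unstimulated libraries read 91.7, 84.8 and 86.4 CPM. IF libraries read 43.7, 58.0 and 59.7 CPM at 8 h and 65.1, 34.7 and 25.3 CPM at 22 h. DC libraries read 76.9, 120.5 and 87.1 CPM at 8 h and 127, 118 and 164 CPM at 22 h. At 22 h all IF libraries lay below and all DC libraries above the unstimulated range. Runx3 fell by 1.08 ± 0.28 on the log2 scale at IF 22 h (edgeR, adjusted p = 0.0306), and was -0.71 ± 0.28 at IF 8 h (edgeR, adjusted p = 0.141). DC was 0.11 ± 0.28 at 8 h (edgeR, adjusted p = 0.870), or -0.10 without DC 8 h replicate 2, and 0.64 ± 0.28 at 22 h (edgeR, adjusted p = 0.182). IF lay below DC by -1.72 ± 0.28 at 22 h (edgeR, adjusted p = 0.00315) and by -0.82 ± 0.28 at 8 h without a call (edgeR, adjusted p = 0.319).

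The 22 h difference held in all 6 fits without 1 library, although its size was -1.07 without both IF 22 h libraries low in mitochondrial ribosomal RNA (edgeR, adjusted p = 0.349). Replicates 2 and 3, the ones low in that RNA, were also the 2 lowest for Runx3 in the group. The IF 22 h call against unstimulated cells was lost in 5 of 6 fits without 1 library (adjusted p = 0.0820 to 0.140) and kept without IF 22 h replicate 1, when it was -1.55. Without both low libraries it was -0.43 (edgeR, adjusted p = 0.690). Under library-size scaling alone it was -0.85 (edgeR, adjusted p = 0.0863), and DC 22 h reached 0.96 (edgeR, adjusted p = 0.0367). No other gene overlaps the exons of Runx3 in the annotation.

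Id2, an inhibitor of E proteins that keeps effector cells alive, was not called. It read 64.9 to 70.0 CPM unstimulated, with IF 47.4 to 60.3 at 8 h and 35.7 to 46.5 at 22 h, and with DC 47.6 to 52.0 at 8 h and 38.8 to 88.6 at 22 h. All IF 22 h libraries lay below the unstimulated range, at -0.74 ± 0.23 (edgeR, adjusted p = 0.0716; DESeq2, adjusted p = 0.0315), or -0.53 without both libraries low in mitochondrial ribosomal RNA (edgeR, adjusted p = 0.662). At 8 h it was -0.37 ± 0.23 with IF (edgeR, adjusted p = 0.377) and -0.45 ± 0.23 with DC (0.285), and at DC 22 h -0.11 ± 0.23 (0.832), turning to 0.16 without DC 22 h replicate 2. Between the stimuli it was 0.08 ± 0.23 at 8 h (edgeR, adjusted p = 0.987) and -0.63 ± 0.23 at 22 h (0.181). The 22 h value was -0.43 without both low IF libraries (edgeR, adjusted p = 0.975) and -0.89 without replicate 2 of both DC groups (edgeR, adjusted p = 0.0187).

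Gata3, best known from helper T cells and also used by CD8 cells, read 28.3, 36.1 and 31.4 CPM unstimulated and 20.5, 13.7 and 9.44 at IF 22 h. No IF 22 h library reached the unstimulated range, and the fall of 1.14 ± 0.30 was called (edgeR, adjusted p = 0.0316). Its values at IF 8 h (15.7 to 20.9 CPM), DC 8 h (16.2 to 21.9 CPM) and DC 22 h (12.8 to 27.7 CPM) also lay below every unstimulated library, without a call. The differences were -0.83 ± 0.31 at IF 8 h (edgeR, adjusted p = 0.110), -0.76 ± 0.30 at DC 8 h (0.147) and -0.68 ± 0.30 at DC 22 h (0.182). Between the stimuli Gata3 was not called, at -0.08 ± 0.30 at 8 h (edgeR, adjusted p = 0.989) and -0.46 ± 0.30 at 22 h (0.507), the latter 0.04 without both IF 22 h libraries low in mitochondrial ribosomal RNA. The IF 22 h call was lost in 5 of 6 fits without 1 library (adjusted p = 0.0585 to 0.159), being kept without IF 22 h replicate 1, was -0.93 under library size alone (edgeR, adjusted p = 0.0778) and -0.64 without both low IF 22 h libraries (edgeR, adjusted p = 0.634). Gata3 shares exonic bases with 9230102O04Rik on its own strand (77 bases) and with antisense Gm13256 (155 bases).

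Tox, a nuclear factor of exhausted and memory T cells, read 44.0, 26.4 and 32.4 CPM unstimulated and 15.4, 12.3 and 22.0 CPM at DC 8 h. All DC 8 h libraries lay below the unstimulated ones, and the fall of 1.05 ± 0.30 was called (edgeR, adjusted p = 0.0472). DC 22 h read 17.0, 16.6 and 19.6 CPM, -0.95 ± 0.30, not called (edgeR, adjusted p = 0.0653; DESeq2, 0.0332). IF libraries read 14.6 to 29.2 CPM at 8 h and 14.96 to 26.4 at 22 h, overlapping the unstimulated range, at -0.74 ± 0.31 (edgeR, adjusted p = 0.159) and -0.63 ± 0.30 (0.250). The latter was -0.42 without both IF 22 h libraries low in mitochondrial ribosomal RNA. The IF-DC difference was 0.31 ± 0.31 at 8 h (edgeR, adjusted p = 0.916) and 0.33 ± 0.30 at 22 h (0.677), the latter 0.53 without both low libraries. The DC 8 h call was lost in 5 of 6 fits without 1 library, with adjusted p of 0.0552 to 0.188, and was kept without DC 8 h replicate 3. It was also lost with the replicate block (adjusted p = 0.0702), under library size alone (adjusted p = 0.111), and without replicate 2 of both DC groups (adjusted p = 0.141). Tox shares 260 exonic bases with the antisense gene Gm11802.

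Ikzf2, which encodes Helios, a zinc-finger factor of the Ikaros family, was higher than in unstimulated cells with both stimuli at 8 h and with DC at 22 h. Unstimulated libraries read 27.7, 28.7 and 24.4 CPM. IF libraries read 50.8, 61.7 and 56.5 CPM at 8 h and 46.8, 39.8 and 26.1 CPM at 22 h. DC libraries read 61.3, 97.4 and 43.3 CPM at 8 h and 64.6, 99.8 and 59.7 CPM at 22 h. Every DC library lay above every unstimulated library, and so did every IF 8 h library, while IF 22 h replicate 3 fell within the unstimulated range. Ikzf2 rose by 1.06 ± 0.29 with IF at 8 h (edgeR, adjusted p = 0.0354), with DC by 1.32 ± 0.29 at 8 h (edgeR, adjusted p = 0.00977) and by 1.47 ± 0.29 at 22 h (edgeR, adjusted p = 0.0046), with 0.47 ± 0.29 at IF 22 h (edgeR, adjusted p = 0.382). The IF-DC difference was -0.26 ± 0.28 at 8 h (edgeR, adjusted p = 0.930), turning to 0.10 without DC 8 h replicate 2, and -0.996 ± 0.28 at 22 h (edgeR, adjusted p = 0.0768; DESeq2, 0.0228; with the replicate block, 0.0329). Without both IF 22 h libraries low in mitochondrial ribosomal RNA, IF 22 h was 0.79 over unstimulated cells (edgeR, adjusted p = 0.476) and -0.68 against DC (0.975). The DC 22 h call held in all 6 fits without 1 library. The IF 8 h call was lost in all 6 (adjusted p = 0.0694 to 0.124), and the DC 8 h call without DC 8 h replicate 2 (0.95, adjusted p = 0.0623). The exons of Ikzf2 overlap those of antisense Gm29114 by 144 bases.

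**Figure D2:**
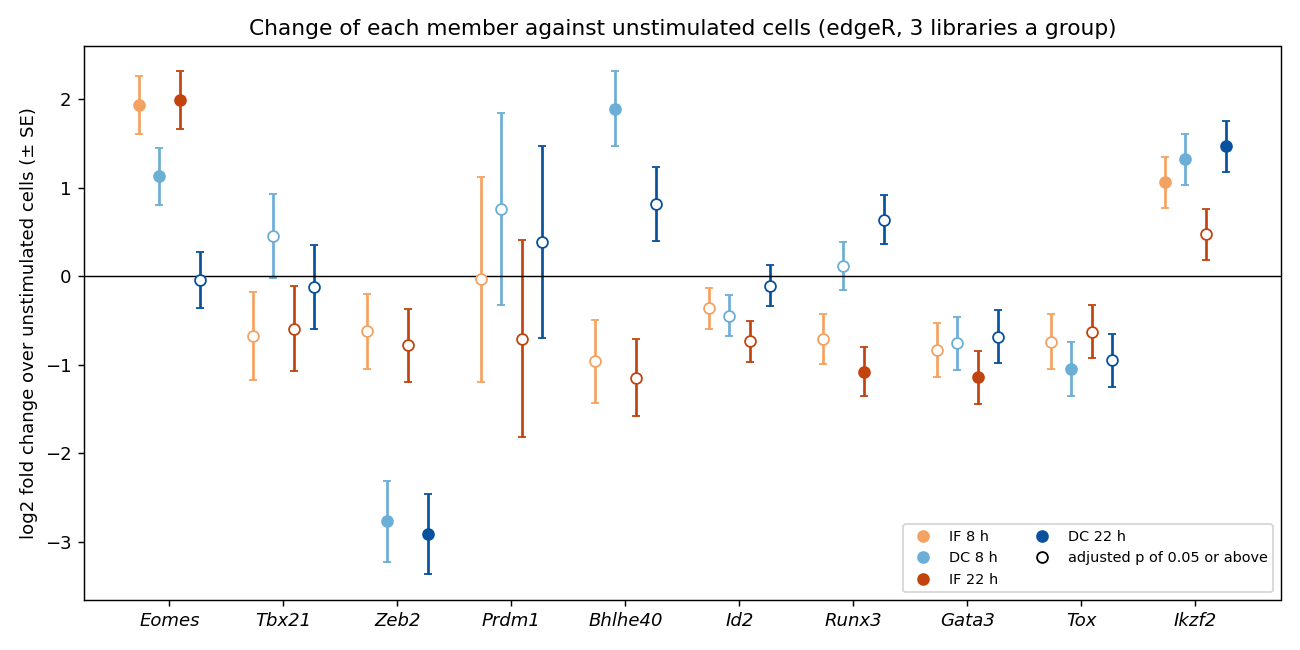
Log2 fold change over unstimulated cells (± SE, edgeR, 3 libraries a group) of the 10 genes in the 4 stimulated groups, filled where the adjusted p was under 0.05. Eomes at both IF times and DC 8 h, Zeb2 at both DC times, and Ikzf2 at 3 of 4 conditions stand among the filled points.

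Against unstimulated cells, the median log2 fold change of the 10 genes was -0.65 with IF at 8 h and -0.72 at 22 h, and 0.28 with DC at 8 h and -0.08 at 22 h, beside medians of all genes of 0.01 to 0.04. The sign of both DC medians depended on the library left out. At 8 h the median was -0.27 without DC 8 h replicate 2 and -0.15 without replicate 3, and at 22 h it was 0.07 without DC 22 h replicate 1 and 0.05 without replicate 3. Under library size alone it was 0.25 at DC 22 h, beside 0.37 for all genes, and -0.41 at IF 8 h, beside 0.26. Without both IF 22 h libraries low in mitochondrial ribosomal RNA it was -0.48 at IF 22 h. No gene of the 10 was called between 8 h and 22 h of IF (0 called by edgeR or DESeq2, 0 at an unadjusted p under 0.05) or of DC by edgeR (0 called, 2 at an unadjusted p under 0.05, 1 by DESeq2), where 1.12% and 0.480% of all genes were called. The values ran from -0.67 (Prdm1) to 0.11 (Tox) for IF, and for DC from -1.17 (Eomes) and -1.07 (Bhlhe40), the 2 at that unadjusted p, to 0.52 (Runx3). With the replicate block Eomes was -1.19 (edgeR, adjusted p = 0.155) and Bhlhe40 -1.03 (edgeR, adjusted p = 0.245), neither called, and both were lower at 22 h of DC than at 8 h in 3 of 3 same-numbered pairs. That block fits a common replicate effect over all 5 groups, so the DC groups were not tested as pairs on their own. The change of the IF-DC difference between the times was called by edgeR for 0 of 10831 genes, with Eomes (1.23), Runx3 (-0.90) and Id2 (-0.71) at an unadjusted p under 0.05. That 0 depended on the setting: DESeq2 called 40 genes and none of the 10, edgeR without the low-count filter called 155 with Eomes among them, and edgeR without IF 22 h replicate 1 called 279 genes (2.50%), Runx3 among them (-1.37, adjusted p = 0.0261). When only the 6 libraries compared entered the fit, Eomes was called between the stimuli at 22 h, and Runx3 (adjusted p = 0.0753), Zeb2 (0.112) and Bhlhe40 (0.0688) were not. At 8 h Bhlhe40 was called and Zeb2 (0.163) was not, and Runx3 at IF 22 h against unstimulated cells had an adjusted p of 0.0571. Such fits also called Runx3 (-0.70, adjusted p = 0.0142) and Gata3 (-0.83, adjusted p = 0.0303) at IF 8 h and Id2 (-0.73, adjusted p = 0.0195) at IF 22 h.

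**Figure D3:**
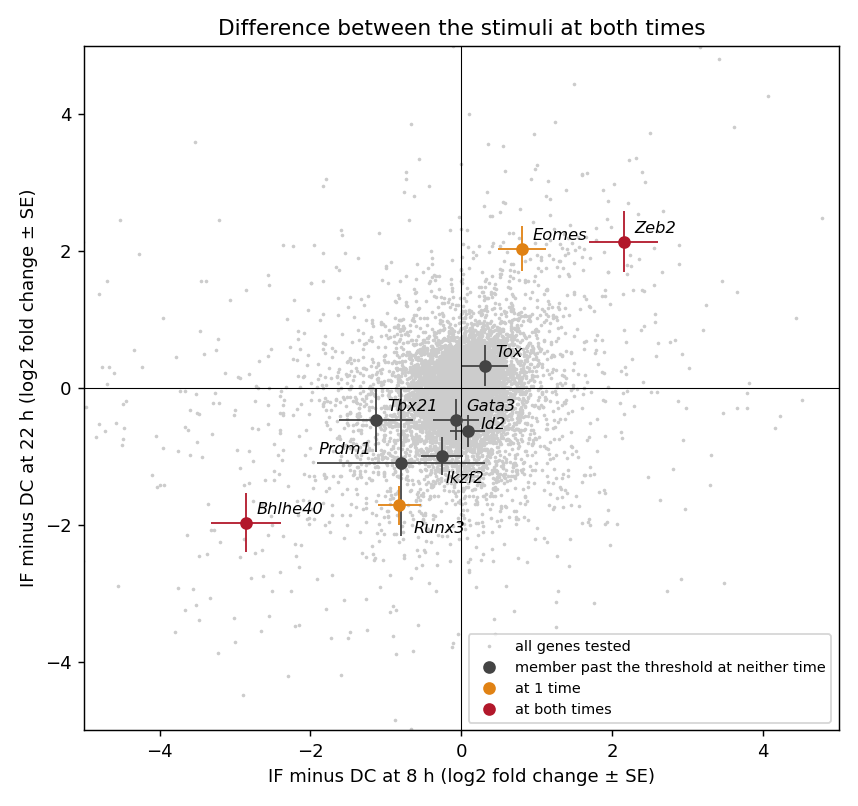
IF-DC difference (log2 fold change ± SE) at 8 h on the horizontal and at 22 h on the vertical axis, for the 10 genes over all 10831 genes tested in grey, with 112 genes beyond the limits of 5. Zeb2 lay in the upper right and Bhlhe40 in the lower left quadrant, past the threshold at both times, and Eomes and Runx3 were past it at 22 h.

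Related genes were read from 4 lists, of which the genes with the smallest p in each comparison are given. Their calls held in each fit without 1 library unless said. Of 29 tested partners and paralogs of the 10 genes, 1 rose and 2 fell at IF 8 h, 1 and 3 at DC 8 h, 2 and 0 at IF 22 h, and 2 and 3 at DC 22 h. In that order the called shares were 10.3%, 13.8%, 6.90% and 17.2%, beside 7.76%, 6.82%, 6.08% and 7.76% of all genes. Ikzf4 (Eos), the Ikaros-family relative of Ikzf2, was higher in all 4 conditions, with IF by 2.40 ± 0.68 at 8 h and 2.65 ± 0.66 at 22 h, and with DC by 3.42 ± 0.66 at 8 h and 3.34 ± 0.66 at 22 h. Both IF calls depended on single libraries, being lost in 5 of 6 fits at 8 h (kept without IF 8 h replicate 3) and 4 of 6 at 22 h (kept without unstimulated replicate 2 or IF 22 h replicate 3). Ikzf3 (Aiolos), a further relative, rose at IF 22 h by 1.27 ± 0.23, and Ikzf1 (Ikaros) fell at DC 22 h by 0.55 ± 0.14, a call lost in 4 of 6 fits (kept without unstimulated replicate 3 or DC 22 h replicate 3). Ikzf1 was also lower at DC 8 h (-0.54), a call likewise lost in 4 of 6 (kept without unstimulated replicate 3 or DC 8 h replicate 3). Runx1, the paralog of Runx3, fell with IF at 8 h (-1.54) and with DC at 8 h (-1.35) and 22 h (-1.10). The DC calls were lost in 3 of 6 fits at 8 h (without unstimulated replicates 1 or 2 or DC 8 h replicate 2) and 5 of 6 at 22 h (kept without DC 22 h replicate 3). Tle3, a Groucho corepressor that binds RUNX factors, fell at IF 8 h (-1.02) and with DC at 8 h (-0.89) and 22 h (-0.88), and both DC calls were lost in 5 of 6 fits (kept without DC 8 h replicate 2 and DC 22 h replicate 3). Between the stimuli only Id3, higher with IF at 22 h by 0.84 ± 0.20 (edgeR, adjusted p = 0.0360), was called among the 29 (3.45%, beside 2.43% of all genes), and its call was lost in 5 of 6 fits (kept without IF 22 h replicate 1).

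Of 34 upstream inputs, 6 rose and 5 fell at IF 8 h, 7 and 4 at DC 8 h, 4 and 7 at IF 22 h and 3 and 4 at DC 22 h. These were 32.4%, 32.4%, 32.4% and 20.6% of the list, beside the all-gene shares above. Junb and Jun, AP-1 subunits, fell in every condition. With IF the values of Junb and Jun were -3.05 and -3.84 at 8 h and -3.42 and -6.85 at 22 h, and with DC -1.85 and -2.92 at 8 h and -2.38 and -3.22 at 22 h. Nfat5, a factor of the NFAT family, rose with IF by 1.44 at 8 h and 1.48 at 22 h, and with DC by 1.47 at 8 h and 1.83 at 22 h. Il2ra, the high-affinity interleukin-2 receptor chain, picked after its values were seen, rose with IF by 4.54 at 8 h and 3.73 at 22 h, and with DC by 4.70 at 8 h and 4.42 at 22 h. Its calls were lost without unstimulated replicate 2 at IF 8 h, without unstimulated replicate 1 or 2 at DC 22 h, and in 5 of 6 fits at IF 22 h (kept without IF 22 h replicate 1), and its DC 22 h value was 2.50 without DC 22 h replicate 2. With IF set against DC, Junb (-1.19) and Batf (-0.96), an AP-1 partner, were the 2 of the list called at 8 h (5.88%, beside 0.665% of all genes), both lower, and the Batf call was lost in all 6 fits. Jun (-3.63) and Junb (-1.04) were lower with IF than with DC at 22 h, where 1 of the list was higher and 5 were lower (17.6%, beside 2.43% of all genes).

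Of 32 tested effector target genes, 2 rose and 3 fell at IF 8 h, 2 and 7 at DC 8 h, 4 and 1 at IF 22 h, and 1 and 6 at DC 22 h, which were 15.6%, 28.1%, 15.6% and 21.9% of them. In that order the shares of all genes were 7.76%, 6.82%, 6.08% and 7.76%. With IF set against DC, 2 were higher and 0 lower at 8 h (6.25%, beside 0.665% of all genes), and 3 were higher and 1 lower at 22 h (12.5%, beside 2.43%). Nkg7, a cytotoxic granule gene, changed at 8 h by -2.07 ± 0.25 with IF and by -1.39 ± 0.24 with DC, and by -1.10 ± 0.24 at DC 22 h. Gzma, granzyme A, was lower in all 4 conditions, with IF by -1.76 at 8 h and -1.23 at 22 h, and with DC by -1.64 at 8 h and -1.16 at 22 h. Its 22 h calls were lost in 6 of 6 fits with IF and in 5 of 6 with DC (kept without DC 22 h replicate 3). The chemokine gene Xcl1 was higher in all 4, with IF by 4.13 at 8 h and 4.74 at 22 h, and with DC by 2.98 at 8 h and 3.47 at 22 h. Its DC 8 h call was lost in 5 of 6 fits (kept without DC 8 h replicate 3), with 1.96 without DC 8 h replicate 2. Its DC 22 h call was lost without unstimulated replicate 1, 2 or 3 or DC 22 h replicate 2, the last at 1.68. Ccl4, a further chemokine gene, rose with IF by 2.93 at 8 h and 2.92 at 22 h. Cxcr3, a chemokine receptor, fell at DC 8 h (-1.74) and at IF 8 h (-1.17), the latter call lost without unstimulated replicate 1 or IF 8 h replicate 2 or 3. S1pr5, an egress receptor, fell with DC at 8 h (-2.97) and at 22 h (-1.96), the latter call lost in 5 of 6 fits (kept without DC 22 h replicate 3, at -2.96). Gzmm, granzyme M, fell with DC at 8 h (-3.29, lost without DC 8 h replicate 2) and at 22 h (-3.61), and the chemokine gene Ccl5 fell at DC 22 h (-1.34). Klrk1, the receptor NKG2D, rose by 1.32 at IF 22 h and was higher with IF than with DC by 1.06 at 8 h and 1.71 at 22 h. Ccl4 was higher with IF at 8 h by 2.88, and both 8 h calls were lost in 5 of 6 fits (Klrk1 kept without DC 8 h replicate 3, Ccl4 without DC 8 h replicate 2). At 22 h Ccl5 was higher with IF by 1.47, a call lost when IF 22 h replicate 3 or else DC 22 h replicate 1 was left out. Cxcr3 was also higher with IF, by 1.09, a call kept only without IF 22 h replicate 1. Gzmb, granzyme B, was lower with IF at 22 h by -2.96 ± 0.56 (edgeR, adjusted p = 0.00804), a call lost without IF 22 h replicate 2, and it was -1.97 without DC 22 h replicate 2. Without both IF 22 h libraries low in mitochondrial ribosomal RNA, the 22 h calls of Klrk1, Ccl5, Cxcr3 and Gzmb between the stimuli were lost, as were those of Id3, Jun and Junb. The same fit ended the IF 22 h calls of Ikzf3, Il2ra, Klrk1, Xcl1, Ccl4, Gzma and Foxo1 against unstimulated cells. The list's median difference between IF and DC was 0.93 at 22 h, against -0.02 over all genes, and 0.51 against -0.06 without both low IF 22 h libraries. Other marker lists had higher sums with IF beside it at 22 h: the 9 memory-phenotype markers summed to 1638 to 1658 CPM with IF and 609 to 973 CPM with DC, and the 9 NK cell markers to 108 to 117 and 37.5 to 70.8 CPM. Single genes made up much of these sums, Ccl5 at 1047 to 1169 CPM with IF and 197 to 565 with DC, and Fcer1g at 70.8 to 87.6 and 23.2 to 42.1 CPM. Of 8 tested memory-phenotype markers 2 were called higher and 0 lower. Of 7 tested NK cell markers, Il2rb included, 1 was called higher and 0 lower, beside 2.43% of all genes. The effector list holds 7 of the 9 memory-phenotype markers (Il2rb, Cxcr3, Ccl5, Itga4, Gzmm, Gzmk and Fasl) and none of the 9 NK cell markers summed. The part of either in the list's difference was not tested.

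Of 17 tested naive and stemness regulators, 3 rose and 1 fell at IF 8 h, 2 and 1 at DC 8 h, 4 and 2 at IF 22 h, and 2 and 2 at DC 22 h, which were 23.5%, 17.6%, 35.3% and 23.5% of them. In that order the shares of all genes were 7.76%, 6.82%, 6.08% and 7.76%. Between the stimuli 1 was higher with IF and 0 lower at 8 h (5.88%, beside 0.665% of all genes), and 2 were higher and 0 lower at 22 h (11.8%, beside 2.43%). Myb, a regulator of proliferation and stem-like cells, rose with IF by 3.12 ± 0.31 at 8 h and 3.61 ± 0.31 at 22 h. At DC 8 h it rose by 1.09 ± 0.30, a call kept in 2 of 6 fits (without unstimulated replicate 3 or DC 8 h replicate 3). It was higher with IF than with DC by 2.02 ± 0.28 at 8 h (edgeR, adjusted p = 0.00144) and by 2.98 ± 0.29 at 22 h (edgeR, adjusted p = 3.88e-05). Bach2, a repressor of effector genes, rose with IF by 1.68 at 8 h and 0.94 at 22 h, and with DC by 1.32 at 8 h and 1.11 at 22 h. Its IF 22 h call was kept in 2 of 6 fits (without unstimulated replicate 1 or IF 22 h replicate 3), with 0.58 without IF 22 h replicate 1, and its DC 22 h call was lost without unstimulated replicate 3. Foxo1, which sustains the quiescent state, fell in all 4 conditions, with values of -0.85 and -0.997 with IF and of -1.02 and -0.87 with DC at 8 h and 22 h, with the IF 8 h call lost without IF 8 h replicate 1 or 3. Ets1, a factor of the ETS family, fell at DC 22 h by 0.65, a call lost without unstimulated replicate 1 or 2 or DC 22 h replicate 2. Under library size alone, the falls of Tle3 with DC, of Ikzf1, Runx1 and Ets1 at DC 22 h, and of Foxo1 at IF 8 h and DC 22 h were not called, nor was the difference of Id3. Further calls that ended under it were those of Gzma at IF 22 h and DC 22 h, S1pr5 at DC 22 h, Ikzf1 at DC 8 h and Cxcr3 between the stimuli at 22 h. The replicate block ended the calls of Runx1 at DC 22 h, Myb and Xcl1 at DC 8 h, and those of Batf and Klrk1 between the stimuli at 8 h. Leaving out replicate 2 of both DC groups ended the DC 8 h calls of Ikzf1, Myb and Gzmm, and the DC 22 h calls of Runx1, Xcl1, Gzma and S1pr5. The calls of Batf and Klrk1 between the stimuli at 8 h and of Cxcr3 at 22 h were also lost in that fit. When only the 6 libraries compared entered the fit, the calls of Klrk1 and Batf between the stimuli at 8 h and of Gzmb, Ccl5, Cxcr3 and Id3 at 22 h were lost. Such fits also ended the calls of Ikzf4 at both IF times, Bach2 at IF 22 h, Ikzf1 at both DC times and Myb at DC 8 h, and at DC 22 h those of Tle3, Runx1, Xcl1, Gzma, S1pr5 and Ets1. Without the low-count filter both calls of Ikzf1 and that of Batf between the stimuli were lost.

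**Figure D4:**
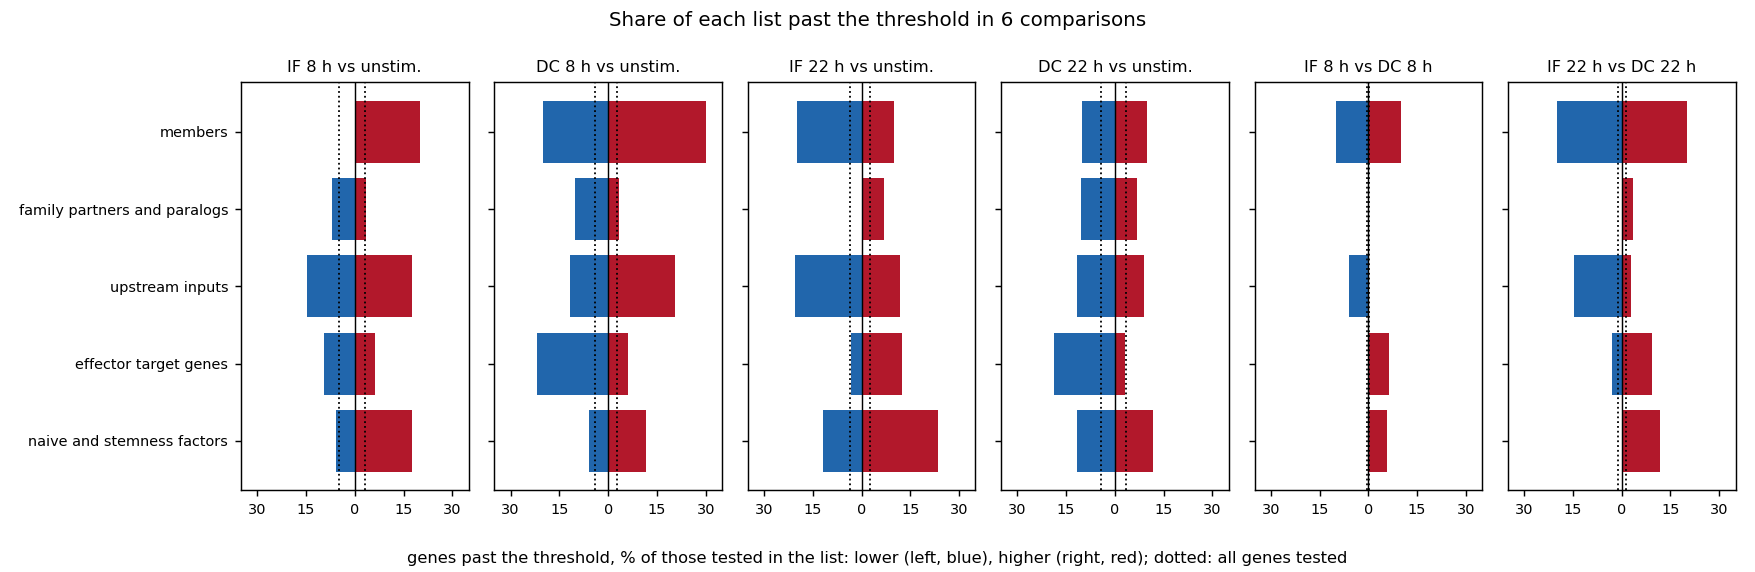
Share of tested genes past the threshold, higher to the right and lower to the left, for the 10 genes and 4 lists in 6 comparisons, with dotted lines at the share among all genes. At IF 22 h against DC 22 h, 4 of 10 regulators were past it, as were 6 of 34 upstream inputs.

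The genes whose pattern over the 15 libraries was nearest to that of each regulator were found by the root mean square difference of centred log2 CPM, which is a description with no test. For Eomes these were Nab2 (0.357), Gpr174 (0.508) and Nfatc1 (0.528). For Zeb2 they were S1pr5 (0.561), Ephx1 (0.573) and Cxcr4 (0.595), and for Bhlhe40 they were Gadd45b (0.526), Ube2l6 (0.583) and Gadd45g (0.598). Runx3 was nearest to Trim30a (0.259), Ago2 (0.298) and Ripk2 (0.351), and Ikzf2 to Zc3h8 (0.30), Parp14 (0.306) and Socs1 (0.312).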

How the data were processed

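Counts per gene were deposited by the authors as whole numbers, 1 table for each of 15 libraries, without normalization. Per the labels' protocols, RNA was made into libraries by an adapted CEL-seq method, which primes from the poly(A) end, and sequenced paired-end. BWA and the build mm10 are named, per the submitters' processing notes. The counting program, annotation, strand use and use of molecular identifiers are not given in the sources used here, so intervals cover the spread of these counts only, and levels are not compared between genes.

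From these counts, the programs edgeR 4.0.16 and limma 3.58.1 (R 4.3.3) were used. The filter was filterByExpr (minimum count 10, minimum total 15) and the scaling TMM. A quasi-likelihood fit of the 5 groups used every library, with two-sided tests and Benjamini-Hochberg adjustment over all 10831 genes within each comparison at 0.05. Fold changes used a prior count of 0.125. The test was run on simulated counts with known changes first. Alternatives were edgeR's RLE factors, library size alone, no low-count filter, DESeq2 1.42.0, only the groups compared, the replicate number as a block, thresholds of 0.01 and 0.1, and leaving out libraries. Replicate numbers were checked by the correlation of same-numbered libraries' deviations from their group means. For DC 8 h and DC 22 h every correlation was over 0.1 (0.116 to 0.399), so the numbers pair those 2 groups by this check, and for no other pair of groups. Between unstimulated cells and DC 8 h the same-numbered library was also the most correlated in every case, but at 0.0253 to 0.0671. The titles carry Don1 to Don3 in every group but do not say whether a number is the same animal across groups.

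All 10 regulators were reported in the 4 comparisons with unstimulated cells and the 2 of IF with DC, and those between times by range. Of each list the text names the 3 genes with the smallest p among those called in these 6 comparisons, with others named after their values were seen. A gene of the upstream inputs is not reported here. Likeness used log2 CPM with a prior count of 2, centred per gene. Positions and overlaps come from GENCODE vM21 (GRCm38), and upstream sequences from RefSeq (GRCm38.p6). The 10 genes, the lists and the markers were chosen with earlier results of these data known.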

Additional observations from a re-analysis of the deposited data

Results flagged for a closer look

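Bhlhe40 at 8 h was flagged because every IF library (3.21 to 5.64 CPM) lay below and every DC library (18.4 to 51.8 CPM) above all unstimulated libraries (7.05 to 9.54 CPM). The log2 difference between IF and DC was -2.85 ± 0.46 (edgeR, adjusted p = 0.00593). Runx3 at 22 h showed the same kind of pattern, with IF libraries at 25.3 to 65.1 CPM and DC libraries at 118 to 164 CPM around unstimulated libraries at 84.8 to 91.7 CPM. Its difference was -1.72 ± 0.28 (edgeR, adjusted p = 0.00315). The IF-DC difference was tested in both cases, but the opposite directions from the unstimulated level were not tested as such: of the 4 changes involved only the rise of Bhlhe40 at DC 8 h and the fall of Runx3 at IF 22 h were called. Only the 10 genes were searched for such a pattern, and its share among all genes was not counted.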

How the results depend on the processing

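Of 1013 values followed under other settings for 66 differences of the 10 genes, 35 changed sign, all of differences that were not called. Those at thresholds of 0.01 and 0.1 are among the 1013 and reuse the main fit, so their signs could not change. Under library size alone, Prdm1 at IF 8 h was 0.20, and at DC 22 h Tbx21 was 0.21, Eomes 0.29 and Id2 0.21. Without IF 22 h replicates 2 and 3, the IF-DC difference of Gata3 at 22 h was 0.040. Without replicate 2 of both DC groups, chosen after seeing the data, Tbx21 and Runx3 at DC 8 h were -0.57 and -0.10, Id2 at DC 22 h was 0.16 and the IF-DC difference of Ikzf2 at 8 h was 0.11. Without 1 library at a time, values that changed sign ranged for Prdm1 from -1.67 to 0.66 with IF at 8 h, -0.99 to 0.011 at 22 h and -1.36 to 1.48 with DC at 8 h. At DC 8 h the range was -0.57 to 0.80 for Tbx21 and -0.10 to 0.24 for Runx3. At DC 22 h it was -0.48 to 0.15 for Tbx21, -0.52 to 0.20 for Eomes and -0.45 to 0.16 for Id2. For the IF-DC difference at 8 h it was -2.44 to 1.31 for Prdm1, -0.026 to 0.15 for Id2, -0.19 to 0.046 for Gata3, -0.0059 to 0.55 for Tox and -0.51 to 0.10 for Ikzf2, and for its change with time -0.34 to 0.29 for Zeb2. Of 83 called values of list genes none changed sign, and 35 lost the call in at least 1 fit without 1 library. Counts of the 10 genes called are given next with the share of all genes under the same setting. With library size alone in place of TMM, IF 22 h gave 1 (7.74%), DC 8 h 4 (9.96%) and DC 22 h 3 (14.6%), and the median of all genes against unstimulated cells shifted to 0.26 and 0.22 with IF at 8 h and 22 h and to 0.30 and 0.37 with DC. The share of calls that were higher then moved from 39.2% to 76.3% and from 43.3% to 74.1% with IF, and from 40.3% to 79.6% and from 43.9% to 85.4% with DC. For IF against DC at 22 h 32.8% of calls were higher in place of 50.6%. Without the low-count filter, IF gave 3 at 8 h (6.82%) and 4 at 22 h (6.43%), DC 22 h gave 3 (7.46%), IF against DC gave 4 at 8 h (1.26%) and 5 at 22 h (4.12%), DC 22 h against DC 8 h gave 1 (1.47%) and the change of the IF-DC difference gave 1 (0.905%). DESeq2 gave 1 for DC 22 h against DC 8 h (1.94%), 4 at IF 22 h (9.84%), 3 at DC 22 h (11.7%), 5 for IF against DC at 22 h (5.20%) and 7 over all groups (20.8%). With the replicate block, DC 8 h gave 3 (6.59%) and IF against DC gave 1 at 8 h (0.499%) and 5 at 22 h (2.26%). At a threshold of 0.01 the counts with IF were 1 at 8 h (2.47%) and 1 at 22 h (2.32%), with DC 2 at 8 h (2.83%), and for IF against DC 1 at 8 h (0.231%) and 2 at 22 h (0.822%). With only the groups compared, IF 8 h gave 4 (13.7%), and IF against DC gave 1 at 8 h (0.482%) and 1 at 22 h (0.687%). Without IF 22 h replicates 2 and 3, IF 22 h gave 0 (0.833%) and IF against DC at 22 h gave 0 (0.0673%), with 1 library left in the group. Without replicate 2 of both DC groups, DC 22 h against DC 8 h gave 1 (0.171%). Without 1 library at a time, the count with IF was 1 in every fit at 8 h (3.75% to 5.13%) and 1 to 3 at 22 h (2.53% to 8.49%), and with DC it was 1 to 5 at 8 h (3.61% to 5.94%) and 2 in every fit at 22 h (4.06% to 8.81%). It ran from 0 to 2 for IF against DC at 8 h (0.242% to 0.467%) and from 2 to 5 at 22 h, where the share was 0.805% without IF 22 h replicate 3 and 6.81% without replicate 1. It was 0 to 1 for DC 22 h against DC 8 h (0.00898% to 1.24%), 0 to 1 for the change of the IF-DC difference (0% to 2.50%), 0 to 0 for IF 22 h against IF 8 h (0.215% to 4.85%) and 5 to 6 over all 5 groups (7.39% to 15.2%). Counts not given lay within 1.5 times of those in the report. Other than for fewer libraries or a stricter threshold, the cause was not tested. Depth is low for Prdm1 and Zeb2, with 0 to 31 and 6 to 111 counts per library.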
